A study of Homo sapiens with 10 samples.

Results

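The baseline transcriptome of TPC-1 cells that carried an empty vector (EV) is described here from 5 of the 10 RNA-seq libraries in the series, chosen by their group label alone. TPC-1 is an established cell line of human papillary thyroid carcinoma, known for a RET/PTC1 rearrangement that joins the start of CCDC6 to the kinase part of RET. In the other 5 libraries, used here only to ask whether detection carries over, the same line carried an overexpression vector (OE) for PTCSC3-AS1, a long non-coding RNA. All 10 were TRIzol extracts treated with DNase I, made into NEBNext Ultra libraries and sequenced in paired ends. EV replicates 1 to 3 came in a first deposited table and EV replicates 4 and 5 in a second, called the first and the second set below. The labels do not name separate cultures, and the 5 libraries share 1 cell line, so every spread given here is between these libraries and may be technical.

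Follicular cells of the thyroid take up iodide through SLC5A5, attach it to thyroglobulin (TG) with hydrogen peroxide from the DUOX enzymes, and do so under thyrotropin acting on its receptor TSHR. The factors PAX8, NKX2-1, FOXE1 and HHEX together mark and maintain this lineage. Papillary carcinomas are known for a constitutively active MAPK cascade, for lowered iodide-handling genes and for the expression of matrix, adhesion and growth factor genes.

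The 5 EV libraries held 15761474 to 17649318 counts, of which protein-coding genes took 97.6 to 97.9% and mitochondrially encoded genes 4.45 to 5.08%. A level is given either as CPM, the count scaled to a common library total, or, to compare genes, as TPM, computed here from the counts and the deposited gene length. A gene is called expressed with at least 1 CPM in all 5 libraries, not detected with 0 counts in all 5, and at trace with no more than 3 counts in any of them. A count of 0 allows at most 3 counts, or 0.170 to 0.190 CPM depending on the library. By these definitions 12311 of 58735 annotated genes were expressed (21.0%), and 30978 had 0 counts throughout. Among 19951 protein-coding genes 11290 were expressed (56.6%) and 4264 were not detected (21.4%), while 554 of 14994 long non-coding RNA genes were expressed. Each count of expressed list members below is to be read beside the 56.6% of protein-coding genes. Within the first set the log2 CPM of EV replicate 2 correlated with EV replicates 1 and 3 at 0.978 and 0.974 across 13290 genes, against 0.991 for EV replicates 1 and 3 with each other. Across the sets it correlated with EV replicates 4 and 5 at 0.965 and 0.969, against 0.974 to 0.982 for EV replicates 1 and 3. Its deviation from the other 4 libraries fell with gene length (r = -0.46 across 12311 expressed genes, which share their libraries), and its TPM was the lowest of the 5 in 46.7% of expressed genes. The part of gene length in the differences that follow was not tested.

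Of the thyroid lineage factors, PAX8 was the most abundant and NKX2-1 was not detected. PAX8, a paired-box factor required to form follicular cells, stood at 184, 153, 196, 184 and 207 TPM in EV replicates 1 to 5, a mean of 185 ± 20.4 TPM (SD, n = 5). FOXE1, a forkhead factor of thyroid migration, was at 22.8, 12.6, 24.96, 32.1 and 24.4 TPM, with the low value in EV replicate 2. HHEX was at 17.4 to 22.0 TPM and GLIS3, a zinc finger factor of thyroid hormone biosynthesis, at 6.61 to 14.1 TPM. NKX2-1 had 0 counts in all 5 libraries, so 4 of the 5 lineage factors were expressed and the remaining one was not detected.

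The machinery that makes thyroid hormone was at or near 0. TSHR, SLC5A5, the iodotyrosine deiodinase IYD, the anion transporter SLC5A8, the deiodinase DIO3 and TFF3 were among the 7 genes of this list with 0 counts in every EV library. TG, normally among the most abundant transcripts of the gland, had 11, 5, 12, 6 and 9 counts, a mean of 0.518 CPM. The oxidase DUOX1 had 7 to 17 counts and its partner DUOXA1 4 to 13, while DUOX2 was at 0 counts in 3 libraries and at 6 and 5 counts in EV replicates 3 and 5. DUOXA2 and the deiodinase DIO2 were at trace, DIO1 had 4 counts in EV replicate 5, and the iodide and chloride exchangers SLC26A4 and SLC26A7 reached 7 and 19 counts at most. Of the 22 genes of hormone synthesis, transport and response, 6 were expressed, not all of which are named here. FHL1, which like TFF3 is counted in the list without being part of the hormone machinery, had 44.0 ± 2.75 TPM. The nuclear thyroid hormone receptors THRA and THRB had 7.92 ± 2.02 and 4.64 ± 1.46 TPM, each with its lowest value in EV replicate 2. CRYM, a cytosolic binding protein of the hormone, was at 2.33 TPM and the transporter SLC16A10 at 1.47 TPM. A share of 6 in 22 lies below the 56.6% of all protein-coding genes that were expressed, a description of a list chosen for this tissue.

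**Figure D1:**
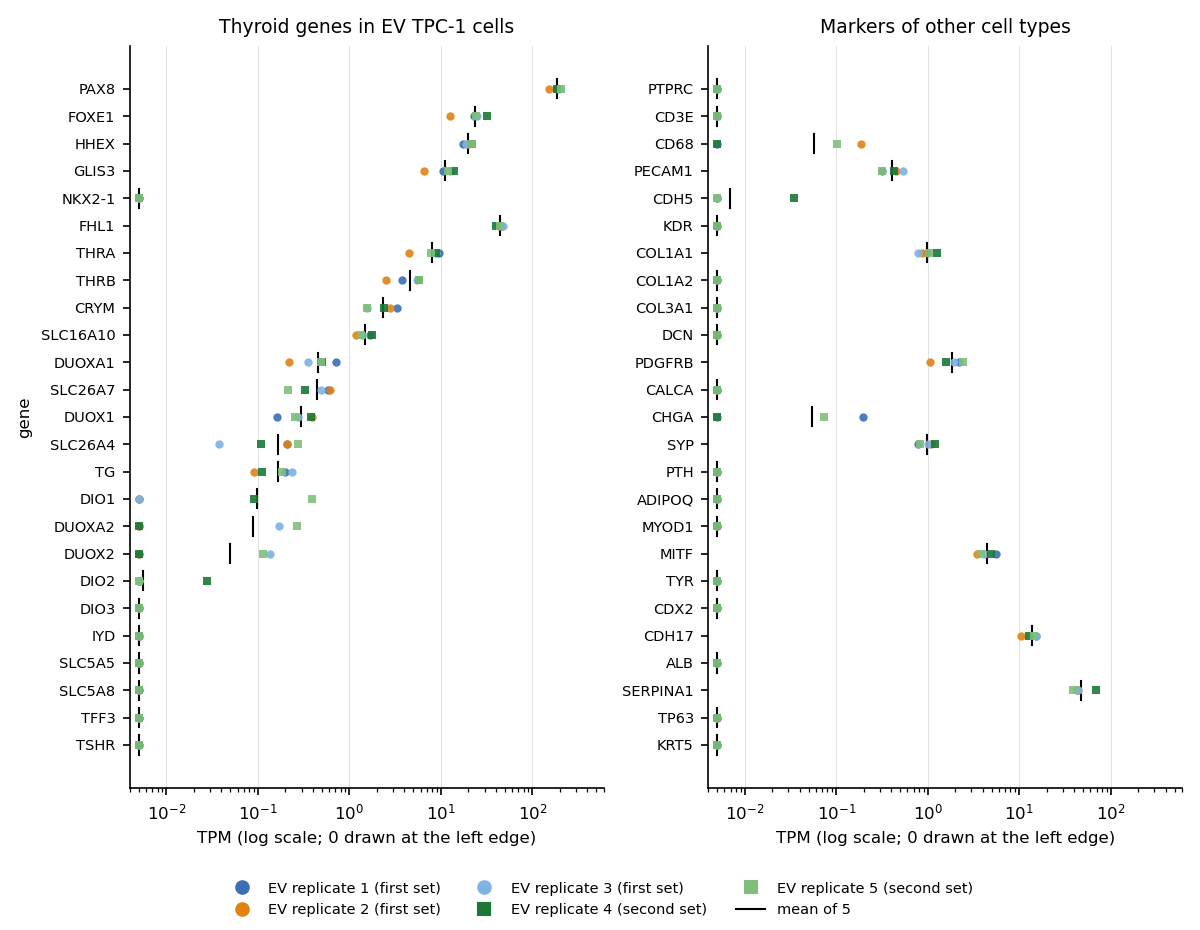
TPM on a log axis for thyroid genes (left) and for a selection of the markers of other cell types (right). There is 1 point per EV library and a black line at the mean, and a value of 0 is drawn at the left edge. The expressed markers TIE1, ERG, LGR5 and KRT10 are not drawn. PAX8 lies between 153 and 207 TPM in every library, whereas NKX2-1, TSHR and SLC5A5 lie at the left edge in all 5.

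The 250 bases before the RefSeq start of 3 of these genes are shown because they differed in detection: PAX8 and HHEX were expressed and SLC5A5 was not detected. Each is written 5′ to 3′ on the strand of its gene, from RefSeq on GRCh38.p14, with every CpG dinucleotide in capitals. PAX8 lies on the minus strand (chr2:113278922-113279171), HHEX on the plus strand (chr10:92689705-92689954) and SLC5A5 on the plus strand (chr19:17871695-17871944).
PAX8: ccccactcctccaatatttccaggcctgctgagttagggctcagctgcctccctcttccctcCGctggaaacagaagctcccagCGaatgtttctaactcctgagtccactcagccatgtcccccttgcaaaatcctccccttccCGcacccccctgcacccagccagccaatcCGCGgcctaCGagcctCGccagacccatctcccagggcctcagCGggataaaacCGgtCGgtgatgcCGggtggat
HHEX: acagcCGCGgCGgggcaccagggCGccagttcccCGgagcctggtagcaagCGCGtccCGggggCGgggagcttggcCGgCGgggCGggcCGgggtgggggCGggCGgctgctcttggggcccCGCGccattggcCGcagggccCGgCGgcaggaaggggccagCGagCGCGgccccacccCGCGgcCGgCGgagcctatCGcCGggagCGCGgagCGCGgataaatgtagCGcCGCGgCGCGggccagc
SLC5A5: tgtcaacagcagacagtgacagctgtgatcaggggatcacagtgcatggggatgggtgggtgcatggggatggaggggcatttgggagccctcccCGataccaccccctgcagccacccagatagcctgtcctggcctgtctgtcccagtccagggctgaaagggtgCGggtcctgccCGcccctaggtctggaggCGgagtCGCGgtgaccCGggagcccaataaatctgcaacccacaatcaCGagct
The PAX8 window held 11 CpG dinucleotides, the HHEX window 38 and the SLC5A5 window 8, beside a median of 18 over 14895 promoter windows of the same length. None of the 3 held the letters TATAAA on either strand. Read on the strand of the gene alone, 6.56% of those windows held them. These are counts of letters in 1 window per gene and are not measures of methylation or binding.

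Transcripts of the RET locus were present at a moderate level. RET had 22.0, 20.4, 23.3, 25.9 and 21.0 TPM, a mean of 22.5 ± 2.19, and its highest library was 1.18 times its lowest after scaling. CCDC6, the 5′ partner in the RET/PTC1 fusion, was lower at 1.96 ± 0.611 TPM. Counts per gene do not separate fusion reads from reads of the unrearranged alleles, so these values do not measure the fusion. NCOA4, the partner in another RET rearrangement, had 284 ± 36.2 TPM. Of the co-receptors that present ligands to wild-type RET, GFRA1 was expressed at 17.8 ± 2.57 TPM, GFRA2 was at trace and GFRA3 and GFRA4 had 0 counts. The ligand GDNF was at 4.45, 4.13 and 3.91 TPM in the first set and 0.970 and 2.37 TPM in the second. The difference between the sets missed the threshold (log2 change -1.37, edgeR adjusted p = 0.14). PSPN had 3.82 ± 1.28 TPM, ARTN was below 1 CPM in some libraries and NRTN was at trace.

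All 18 genes of a list of MAPK feedback regulators and targets were expressed. FOSL1, an AP-1 subunit induced by ERK, led with 1073, 890, 1074, 906 and 1127 TPM. IER3 followed with 501 ± 95.1 TPM, CCND1 (cyclin D1) with 492 ± 89.2 TPM and MYC with 335 ± 22.0 TPM. PHLDA1 had 175 ± 36.4 TPM and the ERK phosphatase DUSP5 130 ± 9.39 TPM. IER3 shares 26.5% of its exon length with exons of another gene, and its level is uncertain to that extent. ETS factors downstream of the cascade were steady, with ETV5 at 57.5 to 69.4 TPM and ETV4 at 30.0 to 35.9 TPM. The median of the list was 52.3 TPM, against 24.5 TPM over all expressed protein-coding genes. Of its members EGR1 and DUSP6 were lower in the second set, and their values are given with the set comparison.

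Receptor tyrosine kinases, the cell-surface kinases that read growth factors, were dominated by 3 genes. Of 58 such receptors 28 were expressed (48.3%, beside 56.6% of protein-coding genes), 6 had 0 counts and 7 were at trace. AXL, the receptor of GAS6, stood at 423, 302, 411, 434 and 473 TPM. EPHA2, an ephrin receptor, stood at 360, 269, 351, 355 and 367 TPM. MET, the receptor of hepatocyte growth factor, stood at 204, 133, 218, 183 and 187 TPM. Together AXL, EPHA2 and MET made up 70.6% ± 1.17 of the summed TPM of all 58 receptors, with 68.5 to 71.3% in the individual libraries. EGFR came next at 60.3 ± 15.8 TPM, then PTK7 at 43.5 ± 7.97, FGFR1 at 30.4 ± 4.12 and RYK at 30.4 ± 1.97 TPM. The ranges of FGFR1, RYK and FGFR4 (26.7 ± 4.14 TPM) over the 5 libraries overlapped, and their order is not fixed by these data.

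The summed TPM of the receptors was 1387, 993, 1375, 1418 and 1442 in EV replicates 1 to 5. EV replicate 2 was the lowest library for 23 of the 28 expressed receptors (82.1%), beside 46.7% of all expressed genes. Median exon length was 7566 bases for these receptors and 5105 bases for all expressed genes. EV replicate 2 was lowest in 75% of 16 collagens (9613.5 bases) and in 73.8% of 42 laminins, glycoproteins and proteoglycans (6899 bases). It was lowest in 41.7% of 12 integrins (7743.5 bases) and in 20.5% of 39 redox and detoxification genes (3590 bases). The part of gene length in these shares was not tested. In the families described, EGFR made up 73.3% ± 3.58 of the ERBB family and ERBB2 26.5% ± 3.62, AXL 93.7% ± 0.617 of AXL, TYRO3 and MERTK, and EPHA2 97.9% ± 0.563 of the EPHA receptors. FGFR1 and FGFR4 shared the FGF receptors at 46.3% ± 3.64 and 40.5% ± 3.21, and in EV replicate 5 FGFR4 led with 43.2% against 42.4%. PDGFRB ranged from 61.1 to 80.8% of the PDGF, KIT, CSF1 and FLT3 receptors. That share rests on low levels, with PDGFRB itself at a mean of 1.83 TPM. EPHB4 ranged from 44.7 to 54.1% of the EPHB receptors. The endothelial receptors KDR and FLT1, the ephrin receptors EPHA7, EPHA10 and EPHB6, and ROS1 had 0 counts, and ALK, KIT, PDGFRA and FLT3 were at trace. Other receptors typical of endothelium did have counts. FLT4 took 100% of the summed TPM of the 3 VEGF receptors in every library, and TIE1 was expressed at 2.20 TPM.

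Ligands of EGFR and AXL were present in the same cells, whereas the ligand of MET was not detected. The list that follows counts ligand genes whether or not their receptor was expressed. Of 43 ligand genes 21 were expressed, led by VEGFB at 115, 138, 117, 128 and 142 TPM. TGFA, a ligand of EGFR, had 71.5 ± 7.49 TPM, FGF2 70.8 ± 10.1 TPM, CSF1 63.3 ± 13.6 TPM, PDGFC 57.9 ± 3.24 TPM and VEGFC 53.3 ± 5.99 TPM. GAS6, which binds AXL, had 22.0 ± 4.19 TPM. HGF, the ligand of MET, had 0 counts in all 5 libraries, as did FGF10, NTF3 and ANGPT1. IGF1, IGF2 and INS also had 0 counts, but 82.4%, 75% and 31.7% of their exon length lies under exons of other genes, so that reads from them could have been set aside by the counting.

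**Figure D2:**
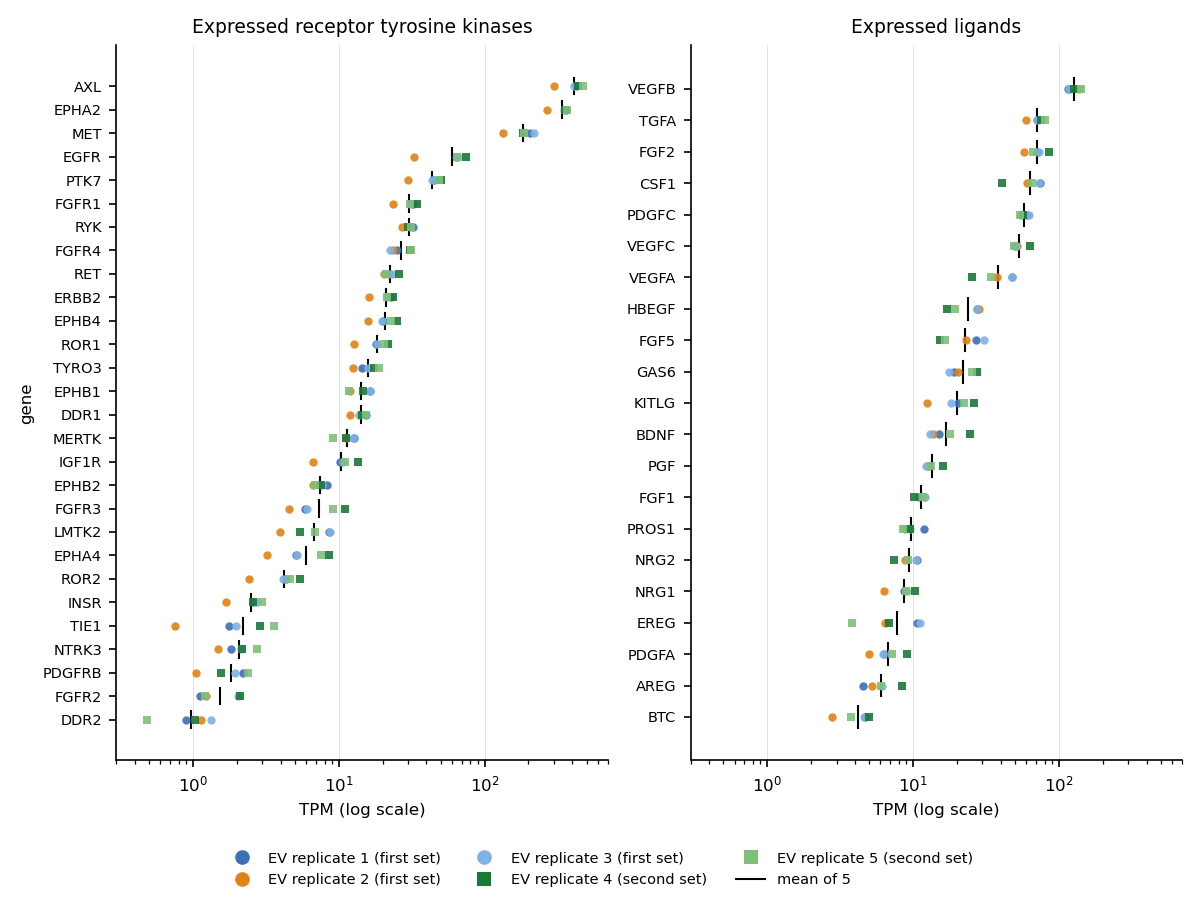
TPM on a log axis of the 28 expressed receptor tyrosine kinases (left) and the 21 expressed ligand genes (right), with 1 point per EV library, coloured by replicate and shaped by set, and a black line at the mean of 5. AXL, EPHA2 and MET lie above 100 TPM in every library, and EV replicate 2 is the lowest point for 23 of the 28 receptors.

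Nuclear receptors, transcription factors controlled by small lipophilic ligands or without a known ligand, were expressed in 26 of 48 cases (54.2%, beside 56.6% of protein-coding genes). NR2F6, an orphan receptor, led with 148 ± 26.1 TPM, followed by the oxysterol receptor NR1H2 at 74.6 ± 6.22, NR2F2 at 69.1 ± 6.73, ESRRA at 61.4 ± 6.87 and the retinoid partner RXRA at 50.4 ± 8.96 TPM. The clock repressor NR1D1 averaged 43.2 TPM but differed between the sets. Sex steroid receptors were low: the progesterone receptor PGR had 0 counts, ESR1 at most 6 and ESR2 at most 10 counts. NR0B1, NR1I2, RXRG and NR2E1 were also without counts, whereas the glucocorticoid receptor NR3C1, the vitamin D receptor VDR and PPARG were expressed at 27.6, 27.2 and 20.1 TPM.

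Cytokine, TNF and TGF-beta family receptors were the most complete receptor group, with 46 of 58 expressed. TNFRSF12A, the receptor of TWEAK, had 437, 377, 400, 471 and 445 TPM. The TRAIL receptor TNFRSF10B had 270 ± 37.6 TPM, TGFBR2 243 ± 31.6 TPM, TNFRSF1A 194 ± 10.4 TPM, CD40 147 ± 14.3 TPM and LTBR 128 ± 15.7 TPM. The chains of the lymphocyte receptor for interleukin 2 were at or near 0: IL2RA and IL2RG had 0 counts and IL2RB was at trace, as were IL1RL1 and CNTFR.

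Secreted cytokines included GDF15, a stress-induced member of the TGF-beta family, at 407, 429, 384, 203 and 274 TPM. The difference between the sets missed the threshold (log2 change -0.83, edgeR adjusted p = 0.085). The neutrophil chemokines CXCL1 and CXCL8 had 298 ± 56.8 and 179 ± 8.86 TPM, TNFSF9 130 ± 15.0 TPM, TGFB1 117 ± 17.6 TPM and CXCL2 87.6 ± 21.1 TPM. LIF had 75.6 ± 12.1 TPM and IL6 61.8 ± 8.28 TPM. CXCL5, CXCL6, CXCL12 and CXCL14 had 0 counts, and 23 of 44 genes of this list were expressed (52.3%, beside 56.6% of protein-coding genes). G protein-coupled receptors were expressed in 38 of 79 cases (48.1%), led by the Wnt receptor FZD6 at 117 ± 17.6 TPM. The adenosine receptors ADORA1 and ADORA2B stood at 57.2 ± 11 and 42.8 ± 3.88 TPM, LGR4 at 55.3 ± 7.31 TPM, and SMO and FZD7 at 36.2 ± 5.19 and 35.9 ± 3.59 TPM. Besides TSHR, the gonadotropin receptors FSHR and LHCGR, the vasopressin receptor AVPR1A and the chemokine receptor CXCR4 had 0 counts.

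The adhesion profile combined simple keratins with mesenchymal genes and had E-cadherin at trace. VIM (vimentin) stood at 857, 1128, 865, 991 and 878 TPM, FN1 (fibronectin) at 805, 429, 908, 443 and 469 TPM, and CD44 at 648, 513, 667, 561 and 539 TPM. ENG had 472 ± 58.7, NT5E 249 ± 31.7 and the tropomyosin gene TPM2 213 ± 22.8 TPM. VIM shares 24.4% of its exon length with other exons. Factors that repress epithelial genes were present, with SNAI2 at 52.4 ± 7.51 TPM, ZEB1 at 23.8, SNAI1 at 21.1 and TWIST2 at 20.2 TPM, and N-cadherin (CDH2) was at 17.0 TPM. In all 19 of 23 mesenchymal genes were expressed, and CDH11, PRRX1 and CNN1 had 0 counts.

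Among 40 epithelial genes 19 were expressed. E-cadherin (CDH1) reached no more than 1 count in any library, and EPCAM, KRT19 and CLDN7 reached at most 5, 4 and 6 counts. The epithelial regulators GRHL2, OVOL1 and OVOL2 and the stratified keratins KRT5, KRT6A, KRT16 and the intestinal KRT20 had 0 counts. KRT18 had 250, 301, 251, 315 and 329 TPM and its partner KRT8 53.4 ± 16.7 TPM. CLDN1 averaged 127 TPM and desmoglein 2 (DSG2) 95 ± 21.5 TPM. KRT81, a hair keratin, was the highest of the list at 545, 506, 434, 2029 and 1346 TPM. The summed level of the list was 1334, 1254, 1240, 2994 and 2153 TPM, highest in the second set. Of the lists with 10 or more expressed genes this one had the lowest stable share: 3 of its 19 expressed genes (15.8%) kept their highest library within 1.5 times the lowest, against 54.2% of all expressed genes. KRT81 and KRT86 are close paralogs, so that reads common to both may have been split or dropped.

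Markers of other cell types were checked against the label. None of 12 leukocyte markers was expressed, PTPRC, CD3E, CD3D, CD2 and MS4A1 had 0 counts, and the list summed to 0.868 to 2.56 CPM. Of 10 endothelial markers TIE1 and ERG were expressed at 2.20 and 1.13 TPM, while KDR and EMCN had 0 counts and CDH5 reached 1. Of 10 fibroblast markers PDGFRB and COL1A1 were expressed at 1.83 and 0.988 TPM, while COL1A2, COL3A1, DCN and POSTN had 0 counts. C cell markers included SYP at 0.978 TPM, with the calcitonin gene CALCA at 0 counts. Parathyroid (PTH, GCM2, CASR), adipocyte and muscle lists had no expressed member. SERPINA1, a hepatocyte marker, was expressed at 47.4 ± 12.1 TPM with ALB and APOB at 0 counts. Of 8 intestinal markers LGR5 and the cadherin CDH17 were expressed, at 13.8 ± 7.27 and 13.7 ± 2.06 TPM, while CDX1, CDX2 and VIL1 had 0 counts. Of the squamous list KRT10 alone was expressed, and TP63, KRT5, IVL and DSG3 had 0 counts.

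Transcription factors of other lineages were expressed in 30 of 68 cases, below the protein-coding share of 56.6%. The hindlimb and pituitary factor PITX1 led with 113, 124, 108, 130 and 129 TPM. SOX9 had 57.6 ± 10.1, TBX3 44.8 ± 11, TFAP2C 37.3 ± 5.10, the cardiac factor NKX2-5 37.0 ± 6.60 and RUNX2 36.0 ± 3.0 TPM. PAX2, a factor of the kidney, had 13.3 TPM. GATA1, GATA4, GATA5 and SOX17 had 0 counts, and SOX2 reached at most 5.

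The laminins were dominated by a few chains, and levels per gene do not show which trimers form. LAMB3, a laminin beta chain, had 1273, 1004, 1266, 895 and 995 TPM and made up 90.1% ± 1.97 of the laminin beta chains. LAMC1 made up 58.6% ± 4.27 of the gamma chains. The alpha chains were much lower: LAMA5 took 91.0% ± 1.47 of them, LAMA3, a laminin alpha chain, had 6.37 TPM and LAMA4 reached no more than 1 count. CYR61, a matricellular protein and target of YAP, had 673 ± 61.0 TPM, SPARC 503 ± 165, syndecan 4 (SDC4) 462 ± 29.9, osteopontin (SPP1) 373 ± 80.3 and agrin (AGRN) 284 TPM. SPARC was highest in EV replicate 4 at 790 TPM and between 387 and 494 TPM elsewhere. In total 42 of 61 laminins, glycoproteins and proteoglycans were expressed, and POSTN, DCN, FMOD, ACAN and GPC3 had 0 counts.

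Collagens were expressed in 16 of 32 cases (50%, beside 56.6% of protein-coding genes), and interstitial ones were at or near 0. COL6A1 had 244, 177, 231, 324 and 186 TPM and COL6A2 153, 136, 137, 194 and 144 TPM, whereas COL6A3, the third chain of collagen VI, had at most 57 counts and made up 0.0974% of the 3 chains. COL4A2 and COL4A1 had 73.2 ± 25.9 and 62.5 ± 24.0 TPM, each lowest in EV replicate 2 and highest in EV replicate 4. COL6A1, COL6A2, COL4A1 and COL4A2 together made up 77.7% ± 2.07 of all collagen TPM. COL17A1, a hemidesmosome collagen, had 32.4 ± 5.65 and COL18A1 30.5 ± 10.02 TPM. COL1A2, COL3A1 and COL11A1 had 0 counts and COL1A1 0.988 ± 0.184 TPM.

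Integrins, the heterodimers that bind these matrices, were expressed in 12 of 26 cases (46.2%, beside 56.6% of protein-coding genes). ITGB1, the shared beta chain, had 841, 650, 869, 814 and 770 TPM and made up 74.3% ± 1.43 of the beta chains. ITGA3, which pairs with it to bind laminins, had 552, 362, 542, 487 and 529 TPM and 57.3% ± 2.93 of the alpha chains. ITGB5 had 178 ± 13.8, the fibronectin receptor chain ITGA5 160 ± 32.0 and ITGA6 70.9 ± 7.96 TPM. ITGB4, which pairs with ITGA6 in hemidesmosomes, reached at most 16 counts. ITGB3 is listed at 93.3 ± 27.7 TPM with 51.6% of its exon length under other exons. ITGA8 had 0 counts, ITGA2B, ITGA4 and ITGB6 were at trace.

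**Figure D3:**
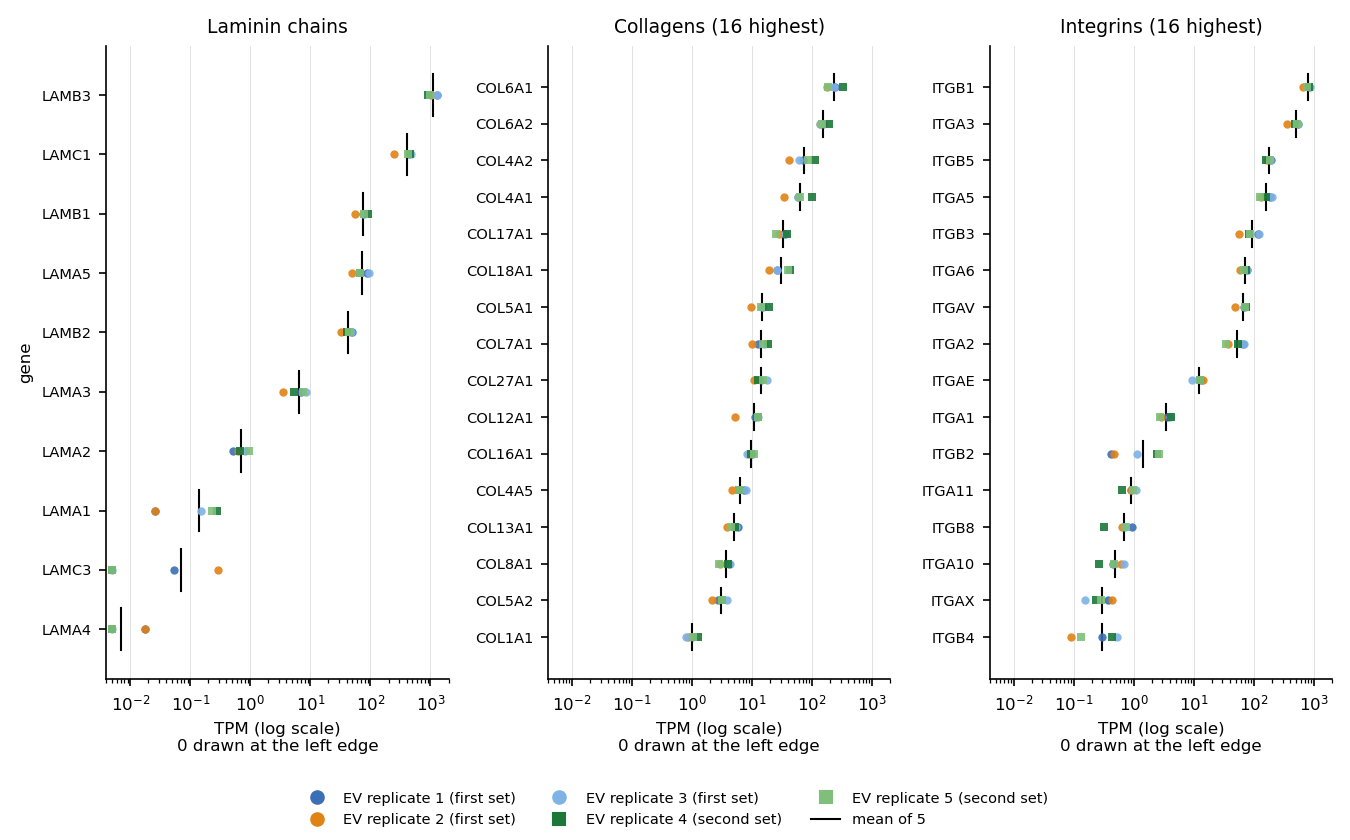
TPM on a log axis of laminin chains, of the 16 highest collagens and of the 16 highest integrins, with 1 point per EV library and a black line at the mean of 5; a value of 0 is drawn at the left edge. ITGA3 lies at 362 TPM or more in every library, as do LAMB3 and ITGB1, and COL6A1 and COL6A2 lie above the other collagens.

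Matrix-cutting and cross-linking genes were abundant, with 38 of 51 expressed. PLAU, the urokinase activator of plasminogen, had 2211, 2114, 2118, 1646 and 1183 TPM, the highest mean of the list at 1855 ± 435, and shares 31.1% of its exon length with other exons. The transglutaminase TGM2 had 875 ± 141, the membrane metalloprotease MMP14 737 ± 106, cathepsin B (CTSB) 729 ± 84.5 and the inhibitor TIMP1 576 ± 118 TPM. PLAUR, the receptor of urokinase, was expressed at 115 TPM, while plasminogen itself (PLG) had 0 counts. CTSD is listed at 355 ± 44.0 TPM with 52.7% of its exon length under other exons. MMP7, MMP8, MMP11, MMP12, MMP13, TIMP3 and TIMP4 had 0 counts, so TIMP1 at 76.2% ± 5.17 and TIMP2 at 23.8% ± 5.17 were the whole of the TIMP family.

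Most glycolytic steps were dominated by 1 isozyme, and 20 of 30 genes of the list were expressed. GAPDH had 3800, 3628, 3783, 3764 and 3550 TPM, ENO1 2256, 2316, 2232, 2616 and 2764 TPM, and PKM 1718, 1455, 1686, 1660 and 1707 TPM. PGAM1 had 1455 ± 215, LDHA 1070 ± 152 and TPI1 855 ± 71.2 TPM. At the hexokinase step HK1 took 66.2% ± 2.78 and HK2 33.7% ± 2.78 of the summed TPM. PFKP took 67.5% ± 1.57 of phosphofructokinase, ENO1 98.3% ± 0.486 of enolase and LDHA 94.7% ± 1.64 of lactate dehydrogenase, where LDHB has 33.4% of its exon length under other exons. ALDOA, the aldolase of muscle and most tissues, is listed at only 9.40 TPM, but 53.5% of its exon length lies under other exons, and that level cannot be read as low. PGAM2, PGK2 and GAPDHS had 0 counts, and PKLR and LDHC were at trace.

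The leading glucose transporter was SLC2A1 at 105, 83.7, 112, 154 and 162 TPM, or 57.1% ± 5.26 of 11 glucose transporters. The higher values of the second set did not pass the threshold (log2 change 0.61, edgeR adjusted p = 0.077). SLC16A1 and SLC16A3, which carry lactate, were at 130 ± 7.11 and 122 ± 20.7 TPM, and their chaperone BSG at 502 ± 40.2 TPM. The pentose phosphate enzymes TALDO1 (324 ± 49.8 TPM), TKT (235 ± 16.7 TPM) and PGD (168 ± 24.3 TPM) were expressed. Glycogen phosphorylase was present as PYGB (272 ± 38.5 TPM) and PYGL (138 ± 11 TPM). The gluconeogenic enzymes G6PC, FBP1 and FBP2, the liver glycogen synthase GYS2 and TKTL1 had 0 counts, and PCK1 reached 1 count where the mitochondrial PCK2 had 31.7 TPM.

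**Figure D4:**
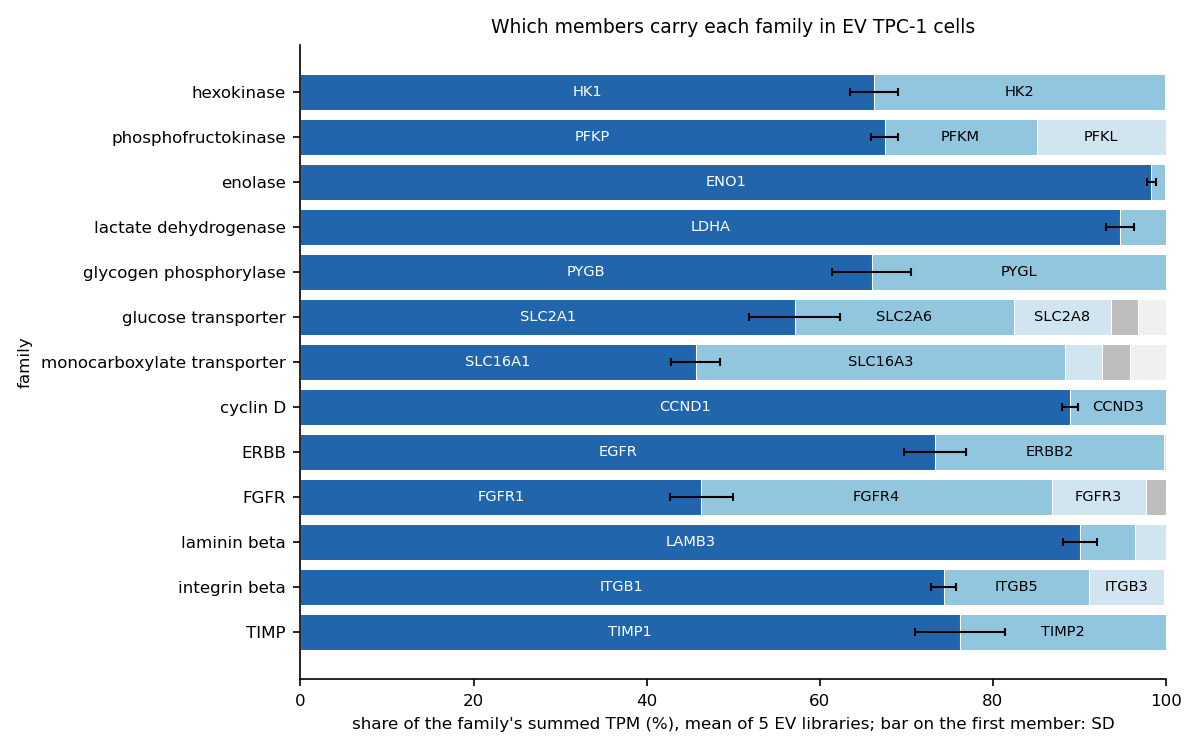
Share of each family's summed TPM (%) taken by its members, as the mean of the 5 EV libraries, with the SD on the leading member; labels are printed for members above 7%. ENO1, LDHA, LAMB3 and CCND1 take 88.9% or more of their families on average, whereas SLC16A1 with SLC16A3 and FGFR1 with FGFR4 share theirs.

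Amino acid transport and synthesis genes were expressed in 42 of 53 cases. SLC7A5, the light chain of the large neutral amino acid transporter, had 1351, 875, 1281, 1407 and 1755 TPM and its heavy chain SLC3A2 422 ± 40.5 TPM. The serine pathway enzyme PSAT1 had 552 ± 57.7 TPM, the polyamine enzyme ODC1 310 ± 35.4 TPM and the glutamine transporter SLC1A5 290 ± 47.1 TPM. GLUD1 had 248 ± 16.6 TPM, and SLC6A14 and OTC had 0 counts. ASNS is listed at 1.26 CPM with 44.6% of its exon length under other exons.

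Lipid genes were led by SCD, the stearoyl-CoA desaturase, at 584, 379, 594, 237 and 410 TPM. ACLY had 321 ± 64.3, PLIN3 226 ± 36.4, FABP5 222 ± 34.7 and SQLE 216 ± 48.5 TPM, and 34 of 49 members were expressed. LPL, APOB and ALOX5 had 0 counts. CPT1A was 99.3% ± 0.518 of carnitine palmitoyltransferase 1.

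Redox and detoxification genes reached some of the highest levels among the metabolic lists. TXN (thioredoxin) had 1299, 1935, 1267, 1204 and 1248 TPM, with the high value in EV replicate 2. HMOX1 (heme oxygenase 1) had 1814, 1414, 1541, 410 and 506 TPM. PRDX1 had 1123 ± 84.4, AKR1B1 1020 ± 159, GPX1 787 ± 165 and GSTP1 663 ± 72.8 TPM. GSTM1, GSTM2, GSTM3, GSTA1, ALDH3A1 and UGT1A6 had 0 counts among 57 members, of which 39 were expressed. EV replicate 2 was the highest library for 16 of these 39 genes, against 16.5% of all expressed genes.

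Cell cycle genes were expressed in 34 of 39 cases. PCNA had 567 ± 77.5, CCNB1 413 ± 28.9, CDKN1A 335 ± 81.2 and TOP2A 210 ± 28.3 TPM. CCND1 made up 88.9% ± 0.894 of the D cyclins and CCND2 reached 1 count. The tumour suppressor locus at 9p21 was transcribed, with CDKN2A at 130, 156, 112, 154 and 168 TPM, CDKN2B at 7.91 ± 2.26 TPM and the neighbouring MTAP at 17.9 ± 0.682 TPM. Of 23 genes around this locus 12 were expressed. TERT, the catalytic subunit of telomerase, had 3.52 ± 0.603 TPM. TP63 and MYCN had 0 counts.

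Antigen presentation was of the class I kind. B2M had 612, 787, 637, 744 and 543 TPM, HLA-E 287 ± 52.5, HLA-B 250 ± 46.7 and HLA-C 178 ± 17.4 TPM. PVR, a ligand of NK cell receptors, had 325 ± 50.6 TPM and NECTIN2 157 ± 13.2 TPM. Reads of the polymorphic class I paralogs may be split. The class II genes HLA-DPB1, HLA-DQA1 and HLA-DQB1 had 0 counts, HLA-DRA at most 2 counts, and the costimulators CD80 and CD86 0 counts. CD274 (PD-L1) was at 4.55 ± 1.28 TPM. Of surface antigens used for sorting or as targets, TFRC had 445 ± 74.0 TPM and ALCAM 202 ± 25.6 TPM, while PROM1, CEACAM5, CEACAM6 and MUC16 had 0 counts.

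Over all genes the highest TPM belonged to mitochondrially encoded transcripts, led by MT-CO1 at 28546, 27377, 32488, 21844 and 26494 TPM. The highest gene of the nucleus was FTL, the ferritin light chain, at 11876, 15457, 11882, 9711 and 8647 TPM. ACTB (5658 ± 318 TPM), EEF1A1 (5169 ± 304 TPM), ACTG1 (5088 TPM) and the thymosin TMSB10 (5044 TPM) followed. The 100 genes with most counts took 19.2 to 21.1% of a library.

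Stability was described by the ratio of the highest to the lowest of the 5 libraries after TMM scaling, calling a gene stable at 1.5 or less. Of 12311 expressed genes 6667 were stable (54.2%), the median ratio was 1.47, and 1675 genes (13.6%) exceeded 2. The stable share was 22.0% of genes at 1 to 10 CPM, 61.0% at 10 to 100 CPM and 72.2% at 100 CPM or more. In the described lists 337 of 651 expressed members were stable (51.8%), close to that background. The steadiest members were ELOVL1, a fatty acid elongase, with a ratio of 1.05, then PKM and SDC4 at 1.07 each, and PFKM and PLAA at 1.08 each. At the other end stood EGR1 at 25.2, KRT86 at 5.89, KRT7 at 5.53, ACTA2 at 5.52 and GDNF at 4.88. Of the 20 genes often used as qPCR references all were expressed and 13 were stable.

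Of the 5644 genes that were not stable, EV replicate 2 was the highest or the lowest library in 64.9%, EV replicate 4 in 43.1%, EV replicate 3 in 39.4%, EV replicate 5 in 33.3% and EV replicate 1 in 19.4%. Each gene has a highest and a lowest library, so an even split over the 5 would already give shares near those of EV replicates 3 and 4. Leaving EV replicate 2 out raised the number of stable genes from 6667 to 9186, of 12474 then expressed. A ratio over fewer libraries cannot be larger, so leaving out any library tends to raise this number. Without EV replicates 1, 3, 4 and 5 in turn it was 7055, 7503, 7661 and 7455. Beside the 54.2% of all expressed genes, the stable share was 65.0% of 20 glycolytic genes, 64.3% of 42 amino acid genes, 57.1% of 28 receptor tyrosine kinases, 55.3% of 38 protease genes, 40.5% of 42 laminins, glycoproteins and proteoglycans and 30.4% of 23 cytokine genes. These differences were not tested.

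The second set was compared with the first by edgeR, EV replicates 4 and 5 against EV replicates 1 to 3, over 14744 genes. At an adjusted p below 0.05, 28 genes were higher in the second set (0.190%) and 33 lower (0.224%), or 0.414% in either direction, and 2331 genes had an unadjusted p below 0.05. The counts depended on EV replicate 2: without it 997 genes were higher and 890 lower, and all 61 genes called with it kept their call and direction. Without EV replicate 4 the counts were 0 and 2, without EV replicate 5 they were 5 and 8, and without EV replicate 1 they were 6 and 16. Where 1 library is left in the second set, it is assumed to vary like the first. Of the 23 called genes named below, EGR1 alone kept its call in all 11 alternatives. The other 22 lost it without EV replicate 4, 17 without EV replicate 5, 14 without EV replicate 1, 6 with limma-voom and 5 without EV replicate 3, and none changed direction. The sources used here do not say what separates the sets, and the set cannot be told apart from any difference in culture, extraction or sequencing between them.

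Of protein-coding genes called lower in the second set with a mean log2 CPM of at least 3, EGR1, an immediate early gene of growth factor signalling, changed most. EGR1 had 103, 95.4, 112, 4.48 and 14.6 CPM, a log2 change of -3.45 ± 0.404 (SE, edgeR adjusted p = 0.013). FOS had 59.5, 78.8, 61.3, 4.16 and 16.1 CPM, a log2 change of -2.73 (edgeR adjusted p = 0.048). In both genes EV replicate 4 was the lowest library, below EV replicate 5. ATF3, a stress-induced factor, fell by 1.75 on the log2 scale (edgeR adjusted p = 0.0065). HMOX1 had 1223, 1048, 1037, 275 and 342 CPM, a log2 change of -1.84 ± 0.160 (edgeR adjusted p = 0.0065). DUSP6, a phosphatase of ERK, fell by 1.15 and has 40.5% of its exon length under other exons.

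Other genes lower in the second set were NR1D1 (log2 change -1.41), the stem cell receptor LGR5 (-1.70), the cadherin CDH6 (-1.38), and the histone genes HIST2H2BE (-2.57) and HIST1H2AC (-1.68). BHLHE41, another clock-related repressor, changed by -1.60. CLDN1 fell by 0.99 on the log2 scale, from 167, 153 and 178 CPM to 94.5 and 72.6 CPM.

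Of the same kind of gene called higher in the second set KRT81 changed most, with 295, 301, 234, 1092 and 731 CPM and a log2 change of 1.71 ± 0.191 (edgeR adjusted p = 0.010). The atypical kinase ALPK2 (log2 change 1.32), TXNDC5 (1.27, with 60.6% of its exon length under other exons), LFNG, which modifies Notch (1.24), NMNAT2 (1.22), the inhibitory SMAD6 (1.198) and the secreted CRISPLD1 (1.18) were also higher. PLLP, a membrane protein of myelin, was higher by 1.31. KRT80 and the desmosome gene PKP3 were higher by 1.04 and 1.002, so that edgeR called 3 of 19 tested epithelial genes higher, beside 0.190% of all genes, and CLDN1 lower. KRT80 and PKP3 each lost the call in 5 alternatives, limma-voom among them, and KRT81 lost it without EV replicate 4. SDC3, a syndecan, was higher by 1.11 and was the only gene that edgeR called of 47 tested laminins, glycoproteins and proteoglycans. By edgeR none of the 4 tested thyroid factors, of 36 receptor tyrosine kinases, of 19 collagens, of 17 integrins or of 21 glycolytic genes was called in either direction. Only 0.414% of all tested genes were called, a share at which lists of this size hold few or no calls. At an unadjusted p below 0.05 edgeR gave 0, 6, 4, 2 and 5 genes of these lists in that order, beside 2331 of all 14744 tested genes. DESeq2 called 0, 2, 2, 1 and 0 of them, and limma-voom called none. PAX8 changed by 0.10 on the log2 scale (edgeR adjusted p = 0.76).

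**Figure D5:**
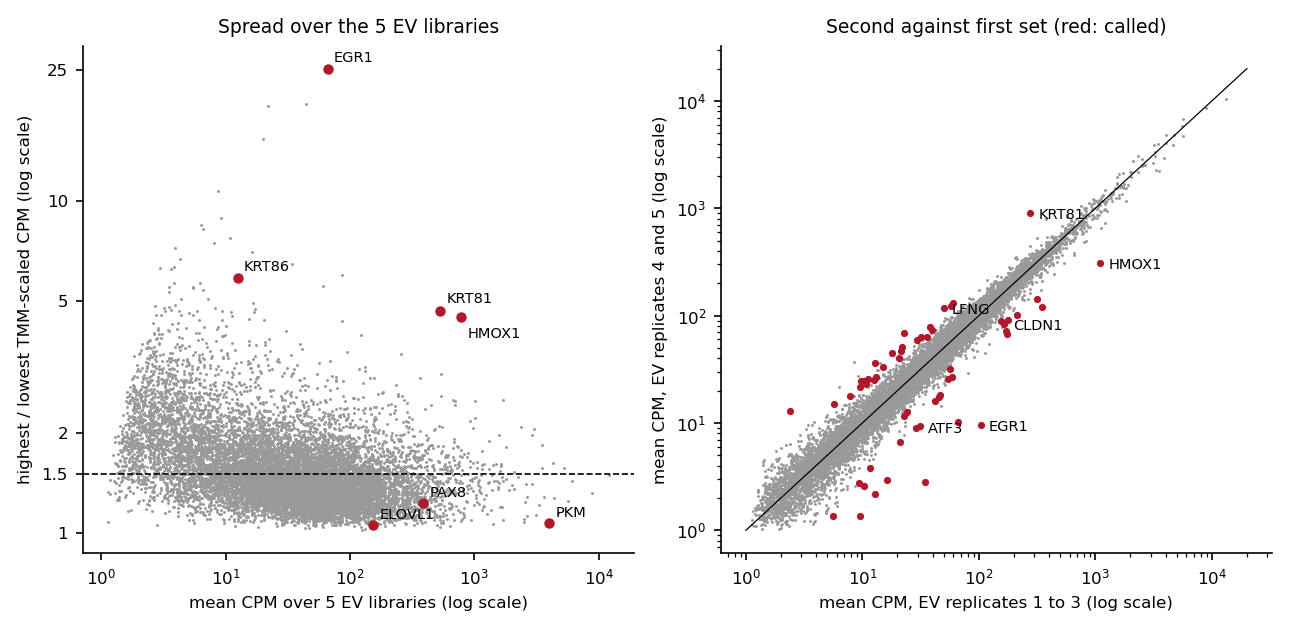
Left, for each expressed gene, the ratio of the highest to the lowest TMM-scaled CPM against the mean CPM of the 5 EV libraries, both on log axes, with the limit of 1.5 dashed. Right, mean CPM of EV replicates 4 and 5 against that of EV replicates 1 to 3 on log axes, with expressed genes called by edgeR in red; EGR1 and HMOX1 lie below the line of equal levels and KRT81 above it.

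Detection was compared with the OE cells as labelled. The overexpressed RNA was not matched to a gene of the tables by symbol, so the EV and OE labels were not checked with it. Of the 12311 genes expressed in EV cells 12158 (98.8%) were at 1 CPM or more in all 5 OE libraries too, and of the 30978 without counts in EV cells 28408 (91.7%) had none in OE cells. No gene without counts in EV cells reached 1 CPM in all 5 OE libraries.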

How the data were processed

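RNA of 10 TPC-1 libraries was sequenced, and the 5 EV libraries are described. The authors deposited raw read counts per gene in 2 tables, per the file headers, with their own gene length, which for all 58735 genes equals the union exon length in GENCODE 29. The submitters' processing notes name CASAVA 1.8, fastp, HISAT2 2.0.5, featureCounts 1.5.0-p3, DESeq2 1.20.0 and hg38; the sources used here state neither strandedness nor poly(A) selection. The 14 deposited columns of FPKM or otherwise normalized values per library were not used. The tables were joined by gene identifier. CPM used total counts. TPM divided counts by gene length, so genes with long, rarely used exons are understated, and reads under exons of several genes may be lost or split. Of the 1107 listed genes, 1105 matched by symbol.

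The sets were compared with edgeR 4.0.16 (quasi-likelihood test, TMM, Benjamini-Hochberg adjustment) in R 4.3.3; limma 3.58.1 and DESeq2 1.42.0 gave alternatives. The script was tested on simulated data. No 2 libraries agreed within sampling noise. Members and lists were chosen with earlier results of these data known. Named genes were drawn from the 6 highest members and the first 4 at 0 or trace in each list, every member of lists of at most 12 genes, the 20 highest genes, up to 8 called genes per direction, and the 5 steadiest and 5 least steady members; the text leaves some of these out, and genes named beyond this rule were chosen after their values were seen. P-values measure the spread between these libraries only. Some genes of the lists are counted but not reported here by name.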

Additional observations from a re-analysis of the deposited data

Results flagged for a closer look

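Among 218 genes named in the text and tested at CPM over the 5 EV libraries, 21 had a highest or lowest library whose gap to the nearest other exceeded 0.71 of the whole range. Chance marks about 1 in 20 such groups, but some of these genes were named for their spread and all share the same libraries. The 21 can therefore not be weighed against that rate. All 21 extremes were in EV replicate 2 or EV replicate 4.

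EV replicate 2 was the high library for 7 genes. The translation elongation factor EEF1A1 was at 10392 CPM there against 8205 to 8754 in the other libraries. Thioredoxin, TXN, was at 681.1 CPM against 383.6 to 415.9, and the peroxiredoxin PRDX1 at 593.5 against 448.1 to 479.3. LDHB, a lactate dehydrogenase subunit, was at 80.77 CPM against 38.36 to 50.5. TMSB10 was at 872.2 CPM, the mitotic cyclin CCNB1 at 363.5 and PLAA at 83.96.

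EV replicate 2 was the low library for 5 genes. The receptor EGFR was at 127.6 CPM there against 224.1 to 260.5, and the laminin chain LAMC1 at 651.5 against 996.7 to 1098. ALCAM was at 347.5 CPM, the ephrin receptor EPHA2 at 345.2 and the hexokinase HK1 at 266.2.

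EV replicate 4 was the high library for 7 genes. The matrix protein SPARC was at 1065 CPM there against 568.9 to 672.1. The keratin KRT8 was at 159.4 CPM against 82.87 to 102.6, and KRT86 at 32.21 against 5.48 to 11.36. PCK2 was at 64.72 CPM against 27.74 to 34.45. COL6A2 was at 291 CPM, HLA-E at 315.7 and ESRRA at 61.77.

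EV replicate 4 was the low library for 2 genes. The cytokine CSF1 was at 62.17 CPM there against 100.7 to 113.5, and the transketolase TKT at 570.7 against 641.1 to 667.3. What sets these libraries apart was not tested.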

How the results depend on the processing

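The number of expressed genes stayed within 1.5 times the reported 12311 in all its alternatives, from 11442 at a minimum of 2 CPM to 13258 at 0.5 CPM, with 12332 after TMM scaling, 12835 at 1 TPM, and 12362 to 12474 when 1 library was left out. The number of stable genes was 6667, and 6656 to 6668 with the other scalings, 6348 at 5 CPM, 10636 at a ratio of 2, and 7055 to 9186 when 1 library was left out. Between the sets, genes higher and lower numbered 28 and 33. They were 220 and 242 with DESeq2, 362 and 393 without a filter on low counts, 425 and 425 with all 10 libraries in the fit, and 19 and 25 with limma-voom. With 1 library left out the higher genes ranged from 0 to 997 and the lower genes from 2 to 890; the cause was not tested. For the 23 named genes, 189 of 253 alternatives kept the call, 64 lost it and 0 reversed. No count of expressed members in the 28 lists moved by over 1.5 times. The sample titles give the 2 sets different replicate numbers, but the numbers in the table headers restart in each table. A replicate block on those header numbers, chosen after seeing the data, gave 165 genes higher and 209 lower, with all 61 reported genes among them. The deviations of same-numbered libraries from the mean of their set correlated at r = -0.025 and -0.044. The second set has only 2 libraries, whose deviations mirror each other, so these values cannot show whether the numbers mark pairs. A count of 0 allows up to 0.190 CPM, counting error only.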
